A study of Drosophila melanogaster with 19 samples.

Results

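The Myc gene of the fly, dm, and 4 genes of ribosome biogenesis, Tif-IA, Nopp140, Nop60B and Fib, were followed through every table of the study. The genes were chosen by symbol in the table of the Armi mutants, with earlier results of these data in view, and each was traced by its transcript identifier through all 5 tables. All 5 were found, out of 12013 transcripts with a symbol. The annotation places dm on X, Tif-IA on 2L, Nopp140 on 3L, and Nop60B and Fib on 2R.

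The cells were ovarian somatic cells (OSC), a Drosophila line of follicle cell origin in which the Argonaute protein Piwi carries PIWI-interacting RNAs (piRNAs). RNA crosslinked to the helicase Armitage (Armi) was sequenced by iCLIP with an anti-Armi antibody in 2 libraries of untreated cells, and after EGFP RNAi (control KD) or Yb RNAi (Yb KD). The same was done with an anti-c-Myc antibody in cells transfected with Myc-tagged Armi, either wild type (WT) or carrying the substitution D862A or R949A. These 5 conditions had 2 libraries each per the labels but 1 deposited column each, so they give no replicate error. Armi CLIPPARE, in which the adapter marks the 5′ ends of Armi-bound RNA, was done after EGFP RNAi (control KD) and Zuc RNAi (Zuc KD), with 2 libraries each. Piwi-bound small RNA was sequenced in 1 library each of untreated cells, of cells after EGFP RNAi (control KD) and of cells after Yb KD. The genotype label of the last of these names EGFP RNAi, and it is called here the library labelled Yb KD. The Myc tag is an epitope for an antibody raised against human c-Myc and has nothing to do with the fly gene dm. The labels do not say whether cells with Myc-Armi still made their own Armi, or whether replicate libraries came from separate cultures, so p-values measure only the spread between libraries.

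Myc is a transcription factor that drives cell growth, in large part by raising transcription of ribosomal RNA and of the genes that process it. In flies it is encoded by dm (diminutive). In follicle cells, piRNAs come from long transposon-rich precursors and also from a subset of mRNAs, whose Armi-bound fragments are cut by the endonuclease Zucchini (Zuc). Yb is a cofactor that gathers Armi and piRNA precursors in perinuclear bodies.

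The columns were made from 0.813 to 10.4 M reads, and 12.8 to 63.8% of these lay in the tables. Values are reads per M reads (RPM) for 1 transcript per gene. Intervals are exact binomial intervals at 95% and cover counting error only, not the spread between libraries. They treat each read as a separate molecule. This is not known to hold, so the intervals may be too narrow. Lengths were not given, so RPM was compared between conditions for each gene and never between genes. The 6 follicle and somatic gonad markers summed to 2157 to 7183 RPM per column, the 5 germline markers found to 2.23 to 15.4 RPM, and the 4 hemocyte markers to 44.3 to 206 RPM. In every column tj was the highest of the 6. It gave 4510 of 4914 RPM in Armi iCLIP after control KD and 1170 of 3047 RPM after Yb KD. Both tj and the hemocyte marker crq are of the High piRNA class described below. The fs(1)Yb transcript, which encodes Yb, gave 269 RPM of Armi signal after control KD and 23.8 RPM after Yb KD. In Piwi small RNA it gave 29.5 RPM, 24 reads, in the control KD library. The library labelled Yb KD gave 44.5 RPM, 38 reads, a ratio of 1.51 whose interval (0.881 to 2.63) includes 1. The median transcript was 4.01-fold higher in that library, and relative to it fs(1)Yb lay 2.69-fold below. Whether Yb was reduced in that library was not tested. The zuc transcript gave 0.343 to 3.72 RPM in CLIPPARE, too few reads to check its knockdown.

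In untreated cells, the 5 mRNAs spanned the authors' piRNA classes, which follow the RPM of the untreated Piwi library. The deposited tables put dm and Tif-IA in the High class of 238 transcripts, Nopp140 in the Middle class of 742, and Nop60B and Fib in the Low class of 5488. The transcription factor gene dm had 2144 and 1954 RPM in the Armi libraries and 1964 RPM in the Piwi library. Armi and Piwi signal of dm were thus nearly level, with a Piwi to Armi ratio of 0.964 (95% interval 0.930 to 0.998). Tif-IA, the initiation factor that brings RNA polymerase I to ribosomal RNA genes, had 338 and 336 RPM in Armi and 445 RPM in Piwi. Its Piwi signal was 1.32-fold the Armi signal (1.22 to 1.42).

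The nucleolar phosphoprotein gene Nopp140, whose product is a chaperone of small nucleolar ribonucleoproteins (snoRNPs), had 204 and 188 RPM in Armi and 81.0 RPM in Piwi. Its Piwi signal was 2.41-fold lower than its Armi signal (2.04 to 2.86). Nop60B encodes the fly dyskerin, the pseudouridine synthase of the box H/ACA snoRNPs, and had 13.2 and 15.8 RPM in Armi and 16.8 RPM in Piwi. The interval of its ratio, 1.14 (0.754 to 1.68), includes 1. Fib encodes fibrillarin, the methyltransferase of the box C/D snoRNPs, and had 4.73 and 5.38 RPM in Armi and 2.23 RPM, 4 reads, in Piwi. At this depth a difference for Fib was not detectable (ratio 0.438, 0.117 to 1.17).

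Across the untreated tables the median Piwi to Armi ratio was a log2 of -0.66. Of the 4 members averaging 5 RPM or more, Tif-IA was at least 2-fold above that median, at 2.09-fold, and none was at least 2-fold below. Among all 3189 transcripts that passed the same minimum, 18.5% were as far above and 17.3% as far below. Fib did not reach the minimum.

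**Figure D1:**
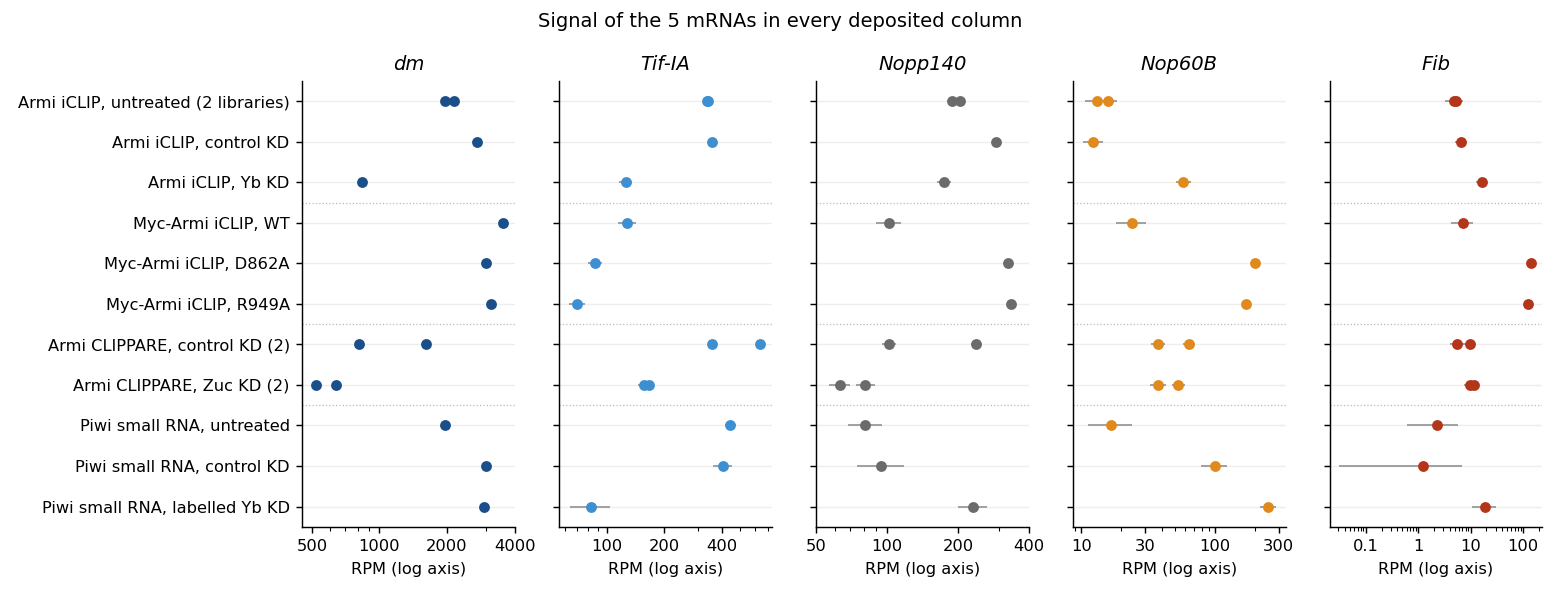
Signal of dm, Tif-IA, Nopp140, Nop60B and Fib in RPM (log axes, 1 panel per gene with its own range) in each of the 14 deposited columns, with 1 point per column and exact 95% counting intervals as grey lines. The Yb KD column of Armi iCLIP is low for dm, Tif-IA and Nopp140, and the D862A and R949A columns are high for Nopp140, Nop60B and Fib.

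In the Yb KD column, Armi signal was lower on 3 of the 5 mRNAs and higher on the other two, in values that have no replicate check. The gene dm had 2709 RPM after control KD and 834 RPM after Yb KD. Its Armi signal was 3.25-fold lower (3.14 to 3.36) in the Yb KD column. Tif-IA had 357 and 125 RPM, and was 2.85-fold lower (2.61 to 3.12). Nopp140 had 289 and 175 RPM, and was 1.66-fold lower (1.53 to 1.79). These 3 mRNAs are the members of the High and Middle classes.

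The snoRNP enzyme genes of the Low class had more Armi signal. Nop60B had 12.3 RPM after control KD and 58.3 RPM after Yb KD, a ratio of 4.75 (3.83 to 5.91). Fib had 6.62 and 16.4 RPM, 69 and 73 reads, a ratio of 2.48 (1.76 to 3.50). The median transcript of the table was 2.99-fold higher in the Yb KD column, a value inside the interval of Fib and below that of Nop60B. The part of all reads that lay in the table was 20.5% after control KD and 34.2% after Yb KD.

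Relative to that median, dm lay 9.72-fold below, Tif-IA 8.48-fold below and Nopp140 4.94-fold below, while Nop60B lay 1.49-fold above and Fib 1.31-fold below. Thus 3 of 5 members were at least 2-fold below the median and 0 were at least 2-fold above, against 19.8% and 9.51% of the 4039 transcripts averaging 5 RPM or more. These values were among those in view when the genes were chosen, so nothing is read from this count. Other transcripts of the same classes had lower ratios still. Of 238 High transcripts, 50 had a lower relative ratio than dm and 64 a lower one than Tif-IA. Of 733 Middle transcripts, 88 were lower than Nopp140, and of 2958 Low transcripts, 2137 were lower than Nop60B and 760 lower than Fib.

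Piwi-bound small RNA gave a different order in the library labelled Yb KD. Tif-IA small RNA was 405 RPM in the control KD library and 82.0 RPM in the library labelled Yb KD, which is 4.94-fold lower (3.80 to 6.48). Small RNA of dm was 2983 and 2918 RPM, a ratio of 0.978 whose interval (0.925 to 1.03) includes 1. So the Armi signal of dm was lower in the Yb KD column while its Piwi small RNA was within counting error.

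Nopp140 small RNA was 94.8 RPM in the control KD library and 231 RPM in the library labelled Yb KD, a ratio of 2.44 (1.86 to 3.21). Nop60B was 99.7 and 251 RPM, a ratio of 2.52 (1.94 to 3.29). Nopp140 was therefore lower in Armi signal and higher in Piwi small RNA, and Nop60B was higher in both. Fib had 1.23 RPM, 1 read, in the control KD library and 18.7 RPM, 16 reads, in the library labelled Yb KD, a ratio of 15.2 with an interval from 2.37 to 639.

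The median transcript of the Piwi table was 4.01-fold higher in the library labelled Yb KD, in which 54.7% of reads lay in the table against 18.6% in the control KD library. Relative to it, Tif-IA lay 19.6-fold below and dm 4.10-fold below, Nopp140 lay 1.66-fold below and Nop60B 1.60-fold below, and Fib lay 2.21-fold above. The count was 2 of 5 at least 2-fold below and 1 of 5 at least 2-fold above, against 18.2% and 12.5% of 4924 transcripts. The member above, Fib, had 1 read in the control KD library and passed the minimum through the other library, so nothing is read from its position. In the High class, 10 of 238 transcripts had a lower relative ratio than Tif-IA, whereas 111 of 238 were lower than dm. The untreated Piwi library gave Nop60B 16.8 RPM and the control KD library 99.7 RPM. Such levels are set side by side across tables that were normalized separately.

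**Figure D2:**
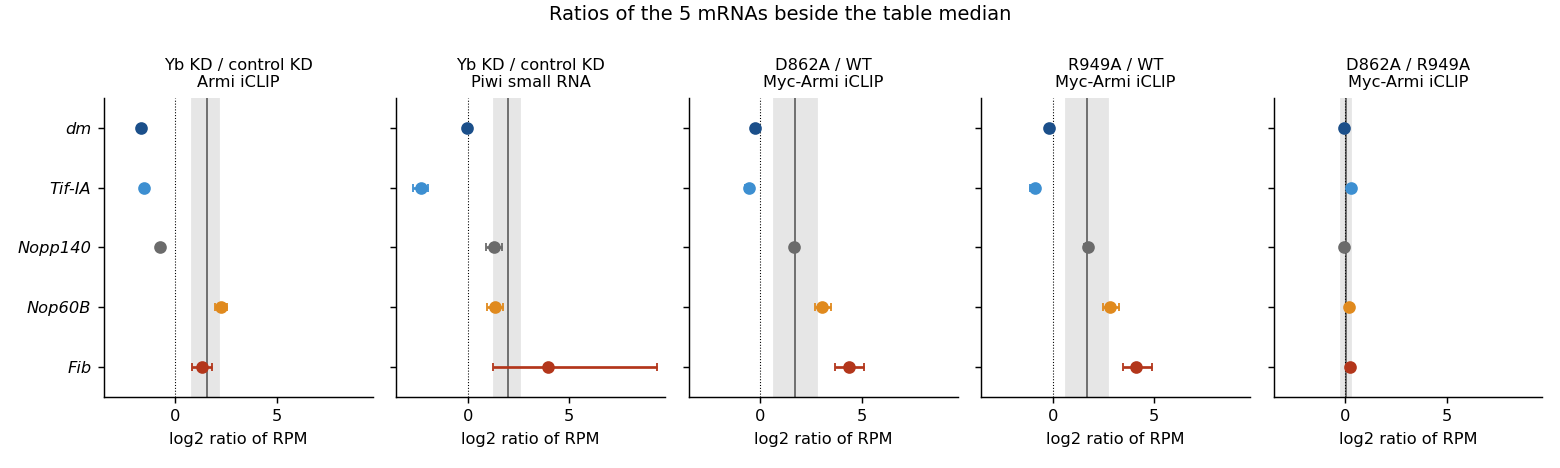
Log2 ratio of RPM of each of the 5 mRNAs (points, with exact 95% counting intervals as bars) in 5 comparisons between columns. The line is the median and the band the 25th to 75th percentile of transcripts averaging 5 RPM or more, both from RPM + 1. In the Yb KD, dm, Tif-IA and Nopp140 lie left of the band in both assays, Nopp140 only just in Piwi small RNA, and between D862A and R949A all 5 points lie close to 0.

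With Myc-tagged Armi, the signal of 3 members was higher and that of the other two lower in the D862A and R949A columns than in the WT column. Fib had 7.07 RPM with WT, 144 RPM with D862A and 123 RPM with R949A. Fib was thus 20.4-fold higher with D862A (12.8 to 34.6) and 17.4-fold higher with R949A (10.9 to 29.5), from 18 reads with WT. Nop60B had 24.0 RPM with WT, 200.3 RPM with D862A and 172 RPM with R949A, ratios of 8.36 (6.46 to 11.0) and 7.19 (5.55 to 9.47). For both snoRNP enzymes, each mutant column was far above WT.

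Nopp140 had 102 RPM with WT, 327 RPM with D862A and 337 RPM with R949A. Its ratios were 3.21 (2.82 to 3.67) and 3.31 (2.91 to 3.78), close to the medians of the tables, which were 3.31-fold and 3.19-fold higher than WT. With WT, 33.2% of reads lay in the table, against 63.3% with D862A and 63.8% with R949A.

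The members of the High class had less signal with either mutant than with WT. The mRNA of dm had 3572 RPM with WT, 2983 RPM with D862A and 3134 RPM with R949A, 1.20-fold lower (1.17 to 1.23) and 1.14-fold lower (1.11 to 1.17). Tif-IA had 128 RPM with WT, 86.9 RPM with D862A and 69.8 RPM with R949A, 1.47-fold lower (1.28 to 1.69) and 1.83-fold lower (1.58 to 2.13). In both mutant columns dm and Tif-IA were below WT with counting intervals that exclude 1, and no replicate error can be set beside them.

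Relative to the table median, dm lay 3.96-fold below with D862A and 3.64-fold below with R949A, and Tif-IA 4.86-fold and 5.82-fold below. Nop60B lay 2.44-fold and 2.17-fold above, and Fib 5.45-fold and 4.81-fold above. With each mutant 2 of 5 members were at least 2-fold above and 2 of 5 at least 2-fold below. Over all transcripts these shares were 26.7% above and 26.3% below with D862A, and 26.3% and 25.3% with R949A, so such positions were common in these tables. The High class itself had a median relative log2 of -1.83 with D862A and -1.69 with R949A. Of its 238 transcripts, 101 had a lower relative ratio than dm with D862A and 107 with R949A. For Tif-IA these numbers were 78 and 52. Within the Low class, 3185 of 3316 transcripts had a lower relative ratio than Fib with D862A, and 3052 of 3225 with R949A. The comparisons with WT share the WT column and are not independent of each other.

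The mutant columns themselves differed little for the members. The ratio of D862A to R949A was 0.952 (0.933 to 0.972) for dm, 0.969 (0.910 to 1.03) for Nopp140, 1.16 (1.07 to 1.27) for Nop60B and 1.17 (1.06 to 1.30) for Fib. Tif-IA had the ratio farthest from 1, at 1.24 (1.09 to 1.42). None of 5 members was 2-fold from the table median in either direction, and over all transcripts 3.49% were above and 2.04% below. Of 238 High transcripts, 217 had a lower relative ratio than Tif-IA.

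CLIPPARE after Zuc KD was the comparison with 2 libraries in each group. Tif-IA had 356 and 632 RPM in the control KD libraries and 166 and 156 RPM in the Zuc KD libraries, 494 ± 195 against 161 ± 7.43 RPM (SD, n = 2 each). Both Zuc KD libraries lay below both control KD libraries. The log2 change was -1.55 (SE 0.419). This fall of Tif-IA was already known when the genes were chosen, so it is given as a description. The adjusted p of the fit (limma, 0.00490) is printed so that its alternatives can be read, and supports nothing by itself.

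Nopp140 had 102 and 239 RPM after control KD and 63.1 and 80.9 RPM after Zuc KD, 171 ± 97.3 against 72.0 ± 12.6 RPM (SD, n = 2 each). The groups did not overlap, and Nopp140 fell by 1.12 on the log2 scale (SE 0.375, limma adjusted p = 0.0281 over 4006 transcripts). As for Tif-IA, the p-values of Nopp140 and of the members below are descriptions. These genes were chosen with results of this comparison known, so the p-values support nothing by themselves. The mRNA of dm had 808 and 1611 RPM after control KD and 520 and 643 RPM after Zuc KD, 1209 ± 568 against 581 ± 87.5 RPM (SD, n = 2 each). The groups did not overlap either, but the log2 change of -0.98 (SE 0.486) did not pass the limma test (adjusted p = 0.150).

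Nop60B had 37.7 and 64.0 RPM after control KD and 37.6 and 53.4 RPM after Zuc KD, 50.9 ± 18.6 against 45.5 ± 11.2 RPM (SD, n = 2 each). Its groups overlapped, and the log2 change was -0.13 (SE 0.347, limma adjusted p = 0.819). Fib had 5.50 and 9.67 RPM after control KD and 9.78 and 11.4 RPM after Zuc KD, 7.59 ± 2.95 against 10.6 ± 1.14 RPM (SD, n = 2 each). Both Zuc KD values were above both control KD values, and the log2 change of 0.47 (SE 0.351) did not pass the limma test (adjusted p = 0.360).

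Without overlap, 3 of 5 members were lower and 1 was higher, against 12.9% and 47.6% of all transcripts. In all, 2 of 5 members were called lower and 0 higher, where the fit called 2.77% of 4006 transcripts lower and 11.8% higher. Because results of this comparison were known when the genes were chosen, nothing is read from that count. The median change of all transcripts was a log2 of 0.33, and with each library centred on its own median dm was called lower (log2 change -1.31, limma adjusted p = 0.00288). The calls of Nopp140 and Tif-IA ended when Zuc KD library 1 was left out (limma adjusted p = 0.869 and 0.864) or Zuc KD library 2 (0.878 for both). They also ended with no filter on low values (limma adjusted p = 0.197 and 0.125). That of Nopp140 ended with a minimum of 20 RPM (limma adjusted p = 0.0624) and with the replicate number as a block (0.0631). The control KD libraries differed from each other by a chi-square of 8.93 per degree of freedom, against 2.31 for the Zuc KD libraries, and the part of this spread in the results was not tested. All 5 members were higher in control KD library 2 than in library 1. The part of all reads that lay in the table was 12.8% in library 1 and 19.7% in library 2. How many of all transcripts were higher in library 2 was not counted, so nothing is read about the members.

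**Figure D3:**
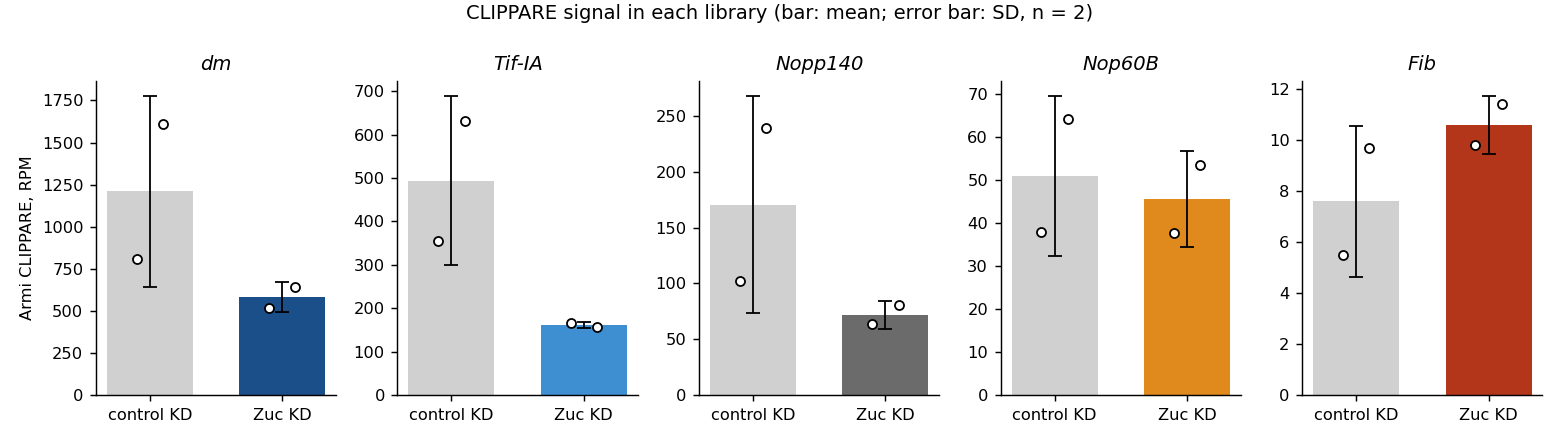
Armi CLIPPARE signal in RPM (linear axes from 0, 1 panel per gene) of the 5 mRNAs in each control KD and Zuc KD library, with circles for libraries and bars and error bars for mean and SD (n = 2). The groups do not overlap for dm, Tif-IA, Nopp140 and Fib, and they overlap for Nop60B, while over all transcripts 47.6% were higher and 12.9% lower without overlap.

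The 5 genes were set beside 4 lists of other genes of the same pathway, of which 34 of 45 listed symbols were found. In the Zuc KD, 23 of these passed the minimum of 5 RPM, 2 were called higher and 0 lower, against 11.8% and 2.77% of all transcripts tested, so neither count stands apart from the table. The 2 were Mnt, the repressor that competes with Myc for its partner Max (5.37 and 11.0 RPM after control KD, 16.8 and 19.3 RPM after Zuc KD), and eIF6, a factor of 60S subunit maturation (3.71 and 4.46 RPM, then 10.1 and 9.63 RPM). Mnt rose by a log2 of 1.12 (SE 0.334, limma adjusted p = 0.0116) and eIF6 by 1.10 (SE 0.382, limma adjusted p = 0.0346). In both control KD libraries eIF6 was under 5 RPM, and it passed the minimum through the Zuc KD libraries. Its call also ended with centred libraries (limma adjusted p = 0.0672), so nothing is read from it. The median change of the 23 list mRNAs tested was a log2 of 0.41, and that of all transcripts 0.33. The list members of highest mean did not pass. They were ago, the F-box protein that targets Myc for degradation (log2 change -0.90, limma adjusted p = 0.114), RpI1, the largest subunit of RNA polymerase I (0.36, 0.468), Nop56, a core protein of the box C/D snoRNPs (0.41, 0.400), and Nnp-1 (0.12, 0.825). Without control KD library 1 the count was 2 higher and 3 lower, without control KD library 2 it was 12 higher and 1 lower, and without either Zuc KD library it was 0 in both directions. Centred libraries gave 1 higher and 3 lower.

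In the Yb KD, 25 of the pathway mRNAs passed the minimum in Armi iCLIP. At least 2-fold below the table median were 3 of 25, no more than the 19.8% of all transcripts. All 3 belong to the list of Myc partners and regulators. They were ago (340 RPM after control KD, 107 RPM after Yb KD), Psi, an RNA-binding protein that promotes dm transcription (669 and 240 RPM), and pUf68, also known as hfp, which restrains it (64.2 and 34.6 RPM). These are also the only members of the High class in the 4 lists. Like dm and Tif-IA they had less Armi signal in the Yb KD column, with ratios of 0.315 (0.286 to 0.347) for ago, 0.358 (0.335 to 0.382) for Psi and 0.540 (0.450 to 0.644) for pUf68.

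The other 22 of the 25 had more Armi signal after Yb KD, a share like that of all transcripts, of which 88.1% were higher. At least 2-fold above the table median were 2 of 25, against 9.51% of all transcripts. Mnt had 8.34 and 65.9 RPM, a ratio of 7.90 (6.20 to 10.2). Among the RNA polymerase I subunits, RpI1 had 12.6 and 38.5 RPM, a ratio of 3.06 (2.42 to 3.87). Among the partners of Fib and Nop60B, Nop56 had 32.1 and 83.0 RPM, a ratio of 2.58 (2.22 to 3.00), and CG4038, the fly Gar1 of the box H/ACA snoRNPs, had 7.58 and 37.6 RPM, a ratio of 4.96 (3.77 to 6.57). In the pre-ribosome list, eIF6 had 8.15 and 42.7 RPM, a ratio of 5.24 (4.04 to 6.85), and Nnp-1 had 45.1 and 109 RPM, a ratio of 2.42 (2.12 to 2.75).

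In Piwi small RNA 28 passed, with 3 at least 2-fold below and 7 at least 2-fold above, against 18.2% and 12.5% of all transcripts. Of those above, pont, CG7728, Surf6 and Nnp-1 had 2 reads each in the control KD library and RpI135 had 3. They passed the minimum through the library labelled Yb KD, so nothing is read from the count above. The 3 below were again ago, Psi and pUf68. Their small RNA was 481 and 161 RPM for ago, 469 and 280 RPM for Psi, and 217 and 178 RPM for pUf68, and the interval of the last ratio, 0.822 (0.658 to 1.03), includes 1. Mnt small RNA was 9.84 and 172 RPM, a ratio of 17.5 (8.65 to 41.3). Among genes averaging 20 RPM or more, the largest ratios of the other lists were 11.4 (3.61 to 58.0) for RpI135, the second largest RNA polymerase I subunit, from 3 reads after control KD, 6.59 (3.67 to 12.9) for nop5, a box C/D core protein, and 22.9 (5.99 to 194) for CG7728, from 2.46 RPM after control KD. The smallest of that set were 3.15 (1.78 to 5.91) for RpI1, 4.67 (2.42 to 9.92) for CG8545 and 3.67 (1.56 to 9.99) for Nmd3. Among pre-ribosome genes l(2)k09022 had the highest mean, with 22.2 and 132 RPM, a ratio of 5.98 (3.62 to 10.5).

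With mutant Armi, Nop56, nop5 and CG4038 of the snoRNP list lay above the table median, as did Fib and Nop60B. Each of these had more than 5 RPM with WT. All 7 mRNAs of the list were at least 2-fold above the table median with D862A, with a median relative log2 of 1.69. With R949A 6 of 7 were, with a median of 1.91. Over all transcripts 26.7% and 26.3% were as far above. NHP2, CG8545, hoip and CG7637 had 1.96, 2.75, 3.54 and 4.32 RPM with WT, and passed the minimum of 5 RPM through the mutant columns. Nothing is therefore read from these list counts. CG4038 had 7.86 RPM with WT and 148 RPM with D862A, a ratio of 18.8 (12.1 to 30.9), and hoip, a snoRNP core protein that binds kink-turn RNA, had 3.54 RPM with WT and 80.5 RPM with R949A, a ratio of 22.8 (11.9 to 50.1). Nop56 had the smallest ratio of the list at a mean of 20 RPM or more, 7.59 (5.83 to 10.1) with D862A, from 22.8 RPM with WT and 173 RPM with the mutant.

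In the RNA polymerase I list, RpI1 and RpI135 lay below the table median with both mutants. RpI1 had 16.5 RPM with WT, 15.1 RPM with D862A and 10.7 RPM with R949A, ratios of 0.917 (0.632 to 1.35) and 0.648 (0.431 to 0.985). Of the 3 mRNAs of this list that passed with D862A, 2 were at least 2-fold below the table median and 1 above. With R949A 2 of 2 were below. Over all transcripts 26.3% and 25.3% were as far below. The 1 above was RpI12, with 0.393 RPM with WT and 10.0 RPM with D862A. It passed the minimum through the D862A column and missed it with R949A, so nothing is read from these counts. Pre-ribosome genes lay on both sides. The mRNA of eIF6 had 7.86 RPM with WT, 156 RPM with D862A and 137 RPM with R949A, ratios of 19.9 (12.8 to 32.7) and 17.4 (11.2 to 28.7), whereas Mat89Ba had 28.3, 25.5 and 24.4 RPM, and Nnp-1 had 73.1, 117 and 118 RPM.

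Myc partners and regulators lay on both sides too. The helicase gene rept, whose product binds Myc in flies, had 2.75 RPM with WT, 51.0 RPM with D862A and 58.8 RPM with R949A, ratios of 18.5 (8.90 to 46.5) and 21.4 (10.3 to 53.6). The histone demethylase gene lid, another Myc partner, had 270.4, 391 and 447 RPM, and ago had 387, 196 and 209 RPM. Thus ago was lower with either mutant than with WT, and rept and lid were higher. Relative to the table median, lid was on the side of ago, 2.29-fold below with D862A and 1.94-fold below with R949A. The 4 lists together had 14 of 31 above and 9 of 31 below with D862A, and 12 of 29 above and 7 of 29 below with R949A. The shares of all transcripts were 26.7% above and 26.3% below with D862A, and 26.3% and 25.3% with R949A, so the counts below were near them. Nothing is read from the counts above, as mRNAs such as rept (2.75 RPM with WT) passed the minimum through the mutant columns. Between D862A and R949A, 0 of 31 were 2-fold from the table median in either direction. Their ratios at a mean of 20 RPM or more ran from 0.622 (0.498 to 0.774) for CG5033 to 1.79 (1.48 to 2.19) for CG7637, the fly Nop10 of the box H/ACA snoRNPs.

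**Figure D4:**
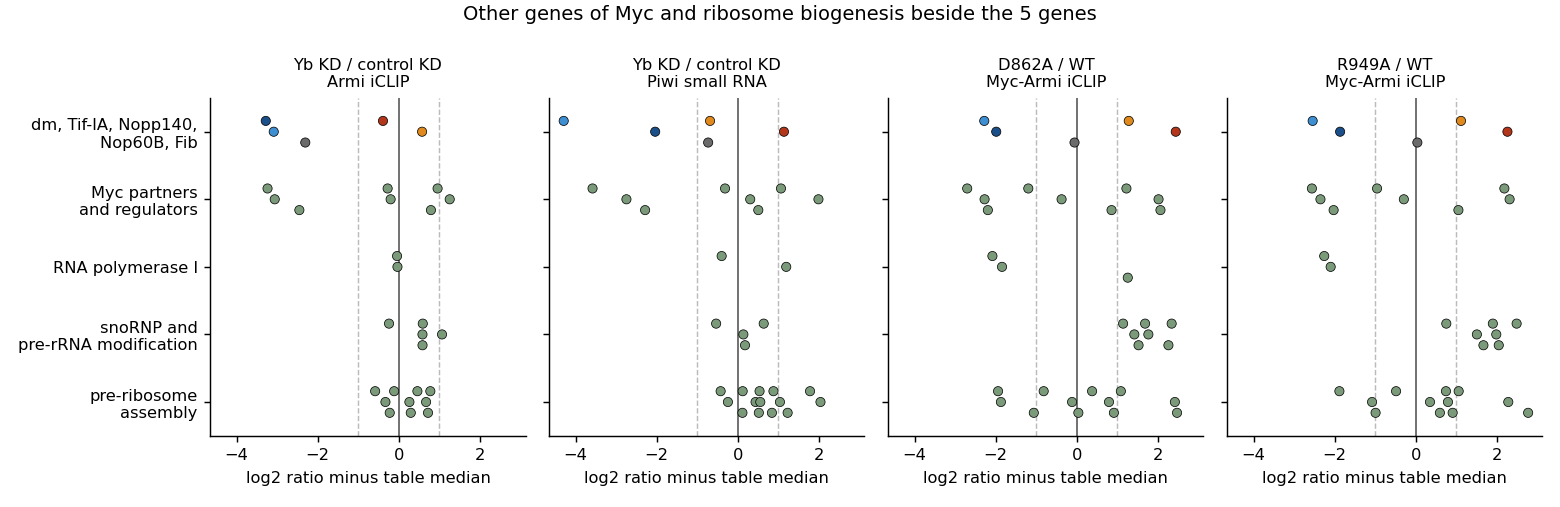
Log2 ratio minus the table median (x axis; dashed lines mark 2-fold) of the 5 genes and of the mRNAs of the 4 pathway lists averaging 5 RPM or more, in 4 comparisons, with 1 point per mRNA. The 3 Myc regulators ago, Psi and pUf68 lie far left beside dm and Tif-IA in the Yb KD. With both mutants the snoRNP points lie right of 0, but NHP2, CG8545, hoip and CG7637 passed the minimum through the mutant columns. Over all transcripts 26.7% (D862A) and 26.3% (R949A) were at least 2-fold above the median.

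Over the 14 columns dm ranged 6.88-fold, Tif-IA 9.05-fold, Nopp140 5.34-fold, Nop60B 20.4-fold and Fib 117-fold, the last from 1 read in its lowest column. The lowest value of dm and of Nopp140 was in Zuc KD library 1 of CLIPPARE, and the highest of dm was with WT Myc-Armi. The members did not share a single pattern. Pearson's r of log2(RPM + 1) across the 14 columns was -0.78 for Tif-IA with Fib, 0.66 for Nop60B with Fib and -0.11 for dm with Tif-IA. These columns share assays, depth and tables, and the r values are descriptions.

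Among 2292 transcripts averaging 20 RPM or more, egl (r = 0.948), mub (0.924) and roq (0.908) had the patterns most like that of dm over the 14 columns. For Tif-IA they were CG41099 (0.944), CG32791 (0.931) and CG32521 (0.921), all of the High class. For Nopp140 they were CG15365 (0.898), CG6511 (0.893) and p120ctn (0.885). For Nop60B they were Trxr-1 (0.968), CG14073 (0.960) and CG9775 (0.959), and for Fib they were Uch (0.987), HmgD (0.973) and Prosalpha7 (0.971), all 6 of the Low class.

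Other annotated genes overlap 4 of the members, and the sources used here do not state whether counting used strand. The annotation has lncRNA:CR44999 and CG12535 over dm, P5CDh1 over Nopp140, 7 small nucleolar RNA genes within Nop60B and 1 within Fib, and none over Tif-IA. Reads of such partners cannot be told apart from those of the members.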

How the data were processed

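Per the labels' protocols, UV crosslinking and RNase T1 digestion preceded the Armi and Myc-Armi precipitations. An anti-Myc antibody is listed for the Piwi libraries of the knockdowns, where their protocol gives anti-Piwi. Per the submitters' processing notes, cutadapt, STAR and dm6 were used. Versions, counting and duplicate removal are not given in the sources used here. The authors deposited RPM for FlyBase transcripts. In each column 100% of values were whole multiples of a single step, within 0.1 of a read, which gave reads and depth. After 107 repeated lines were dropped, 12013 transcripts with a symbol remained (13929 in the untreated and CLIPPARE tables).

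For columns without replicates, no test was made: the planned limma fit was not possible with 1 column per condition. Log2((RPM + 1)/(RPM + 1)) was centred on the median of transcripts averaging 5 RPM or more. Zuc KD used limma 3.58.1 (lmFit, eBayes with trend, two-sided, Benjamini-Hochberg adjusted p of 0.05) on log2(RPM + 1) in R 4.3.3. Tested on simulated data with 3907 transcripts, the fit found 48.9% of those changed 2-fold, 100% of those changed 4-fold, and 9 that were not changed. The simulation gave every transcript and both groups the same dispersion, and libraries differed only in depth. The real control KD libraries differed by a chi-square of 8.93 per degree of freedom, so these figures do not carry over to the real fit. Python 3.11.15, pandas 2.3.3 and scipy 1.17.1 did the rest.

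The members, lists, tests and naming rule were chosen with earlier results of these data known. Named were the 5 genes, and of each list the highest mean RPM, the calls of the fit, and the largest and smallest ratio among those averaging 20 RPM or more. The values of pUf68 under Yb KD were added after they were seen. Overlaps and arms come from a RefSeq table (Release 6 plus ISO1 MT), and no positions or sequences are given. Alternatives were other pseudocounts (0.1 and 5 RPM), filters, scalings, a replicate block, edgeR 4.0.16, DESeq2 1.42.0 and leaving out each replicate.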

Additional observations from a re-analysis of the deposited data

Results flagged for a closer look

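The ratio of Nopp140 between Yb KD and control KD went opposite ways in the 2 assays. Armi iCLIP gave 0.604 (0.557 to 0.654), from 3014 reads after control KD and 776 reads after Yb KD. Piwi small RNA gave 2.44 (1.86 to 3.21), from 77 and 197 reads, with a library whose genotype label names EGFP RNAi. The difference between the assays was not tested, as each condition had 1 column. Relative to the medians of the tables, Nopp140 lay below in both assays, 4.94-fold in Armi iCLIP and 1.66-fold in Piwi small RNA.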

How the results depend on the processing

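For Zuc KD, limma called 582 of 4006 transcripts (14.5%; 471 higher, 111 lower). This became 45 (0.457%) with no filter, 211 (12.1%) at a mean of 20 RPM, 379 higher and 570 lower (23.7%) with centred libraries, 452 higher and 549 lower (24.99%) with edgeR, 233 higher and 436 lower with DESeq2, and 14 to 2002 calls (0.358 to 50.2%) when each library was left out. With the replicate number as a block there were 545 calls (13.6%) and the limma adjusted p of Nopp140 was 0.0631. The pairing check correlated, over transcripts, the deviations of control KD library 1 and Zuc KD library 1 from their group means, and gave 0.05. With 2 libraries per group the other pair mirrors this one, and a shift common to all transcripts is not seen. Whether libraries of the same number shared a batch was therefore not settled. The gene dm was called lower with centring, without trend (limma adjusted p = 0.0433), with edgeR (adjusted p = 0.000973), with DESeq2 (adjusted p = 1.199e-06) and without either control KD library. Fib was called higher without control KD library 2 (log2 change 0.83, limma adjusted p = 0.0299). Nop60B ranged from -0.50 to 0.24 and reversed, to 0.24 without control KD library 2 and 0.12 without Zuc KD library 1. Where a library left out leaves 1 in its group, that library is assumed to vary like the other group.

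Counts of transcripts at least 2-fold from the table median also moved. With every transcript used they were 3118 in place of 1184 (Yb KD, Armi), 2841 in place of 1512 (Yb KD, Piwi), 3488 in place of 2308 (R949A), 867 in place of 274 (D862A against R949A) and 2624 in place of 1142 (Piwi against Armi). At a mean of 20 RPM they were 791 (Yb KD, Piwi), 1305 in place of 2432 (D862A), 1257 (R949A), 24 (D862A against R949A) and 517 (Piwi against Armi). Ratios of RPM as deposited gave 3079 (Yb KD, Armi) and 4140 (Yb KD, Piwi), a pseudocount of 5 RPM gave 87 (D862A against R949A), and shares of the reads in the table, chosen after seeing the data, gave 2317 (Yb KD, Armi). Leaving out either untreated Armi library gave 1142 to 1156. The cause of these moves was not tested.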

Other observations

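In untreated cells, 14 of the 34 pathway mRNAs found had a mean of at least 5 RPM over Piwi and Armi, and 5 of them were at least 2-fold above and 2 at least 2-fold below the table median of the Piwi to Armi ratio, against 18.5% and 17.3% of all 3189 transcripts. The regulator pUf68 had 56.2 RPM in Armi and 504 RPM in Piwi, a ratio of 9.04 (8.23 to 9.93), and Psi had 337 and 639 RPM, a ratio of 1.89 (1.77 to 2.01). On the other side, Nnp-1, the fly relative of a nucleolar protein of ribosomal RNA processing, had 43.5 RPM in Armi and 5.03 RPM in Piwi, 8.67-fold lower. Nop56 had 23.7 and 4.47 RPM, 5.32-fold lower (ratio 0.188, 0.0805 to 0.374). Both of the latter rest on few Piwi reads.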
